A study of Mus musculus with 4 samples.

Results

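The transcripts of 6 axon guidance genes were followed through the cell classes of the embryonic mouse cortex. They are the ligand genes Slit1, Slit2 and Slit3 and the receptor genes Robo1, Robo2 and Robo3, chosen by gene symbol from the 56884 genes of the deposited tables, and each symbol occurred once. Robo4, the receptor of blood vessels, was kept in a list of 31 genes that act with or downstream of the pathway. Nuclei came from the medial neocortex of E16.5 embryos, frozen, fixed and barcoded by split-pool indexing (Parse Evercode). There were 2 Dnmt1 KO libraries (genotype Sst-Cre/tdTomato/Dnmt1 loxP2) and 2 control libraries (Sst-Cre/tdTomato).

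Both genotypes carried the Cre recombinase, placed in the Sst locus, and the Cre-dependent tdTomato reporter. They differed in the loxP-flanked Dnmt1 alleles, which encode DNA methyltransferase 1 and are deleted where Sst is expressed, that is, in somatostatin interneurons and not in the progenitors or excitatory neurons. The gene tables held neither Cre nor tdTomato, so recombined nuclei could not be picked out. Nuclei with at least 1 transcript each of Sst and of Gad2, which encodes an enzyme of GABA synthesis, were the closest available population (Sst+/Gad2+), which counted 16 and 136 nuclei with the loxP alleles and 40 and 27 control nuclei. As transcripts of the gene relative to all transcripts of the nuclei (counts per 1e6, CPM), Dnmt1 reached 76.1 and 46.1 CPM in the Dnmt1 KO nuclei and 81.2 and 66.5 CPM in the controls. These ranges overlap, rest on 18 to 99 transcripts each, and count the whole gene, so they do not check the deletion. The libraries of a genotype are from separate brains per the study. For comparisons of genotypes, p-values thus measure the spread between 2 brains per genotype, which also differed in sex and, for the controls, in batch. For comparisons of classes they measure the spread of the class difference over the 4 libraries.

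Slit proteins are secreted and bind Robo receptors, which are immunoglobulin-superfamily proteins of the cell membrane. Binding recruits regulators of small GTPases, remodels the actin cytoskeleton and usually repels growing axons or migrating cells, as at the midline of the brain. In the developing forebrain the pathway is known for guiding commissural and corticofugal axons and migrating interneurons, and Robo1 and Robo2 also act in cortical progenitors.

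After filtering, 29656 nuclei remained, 4905 to 12064 per library, with median depths of 12274 to 12401 transcripts in 3 libraries and 21140 in control replicate 2. That library alone belonged to the second batch named in the labels. Each nucleus was placed in the class whose markers, 8 per class, were detected most often, with at least 3 detected and more than for any other class. This placed 83.5% of nuclei, and names end in "-like" because they rest on these markers alone. Of the classed nuclei, 32.0% led by a single marker and 70.8% also had 3 or more markers of another class, so the classes are not pure. The upper-layer-like class still held Eomes, the marker of intermediate progenitors (IPC), at 38.4 to 86.8 CPM, against 378 to 570 CPM in the IPC-like class. At least 10 nuclei per library were found for 10 classes, which are ordered below by mean level. Meningeal-like and choroid-plexus-like nuclei came almost only from Dnmt1 KO replicate 2 and striatal-like nuclei mostly from control replicate 1, so the libraries also differed in the tissue they held. No barcode was shared between libraries. In summed nuclei, fewer expressing cells and fewer transcripts per cell cannot be told apart.

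Over all retained nuclei Robo2 was at 2263 and 1986 CPM (Dnmt1 KO) and at 2809 and 2719 CPM (control). Values below keep this order, both Dnmt1 KO replicates before both control replicates. Robo1 was at 2116, 1410, 1765 and 1285 CPM. Longer genes can collect more reads, and whether intronic reads were counted is not stated. Levels of different genes over all nuclei were therefore compared only per length. In means of the 4 libraries and per kilobase of gene span, Robo1 was highest, at 2.22 CPM, before Robo2 at 1.57, Slit3 at 1.21, Slit2 at 0.969 and Slit1 at 0.887 CPM. Per kilobase of exon Robo2 led with 103 CPM, before Robo1 with 90.5, Slit3 with 55.1, Slit1 with 14.1 and Slit2 with 9.77 CPM. The order was not the same in each library. Per kilobase of span, Slit3 in Dnmt1 KO replicate 2 (1.83 CPM) lay between Robo1 (1.91 CPM) and Robo2 (1.28 CPM), and in control replicate 2 Robo1 and Robo2 were at 1.74 and 1.75 CPM. Per kilobase of exon, Robo1 (117 CPM) stood above Robo2 (95.2 CPM) in Dnmt1 KO replicate 1, and Slit3 (83.1 CPM) above Robo1 (77.6 CPM) in Dnmt1 KO replicate 2. Slit1 and Slit2 also changed places between libraries on either scale.

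Robo3, the divergent receptor that lets commissural axons cross the midline, was at 0.0371 CPM per kilobase of span and 0.0887 CPM per kilobase of exon. It had 54, 119, 114 and 11 transcripts in the whole libraries, which is 0.717, 0.689, 1.14 and 0.0976 CPM. Its highest class mean was 1.76 CPM in endothelial-like nuclei, from 8 transcripts in all. In the IPC-like and cortical-hem-like classes it had 0 transcripts in every library. The 0 counts of IPC-like nuclei allow up to 5.63 to 18.4 CPM, so low Robo3 there was not detectable at this depth, and intervals and limits of this kind cover counting error only.

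Slit1 lies at chr19:41588676-41732268 (GRCm39, minus strand), Slit2 at chr5:48140480-48465075 (plus), Slit3 at chr11:35011789-35602786 (plus), Robo1 at chr16:72105194-72844378 (plus), Robo2 at chr16:73688727-75244270 (minus) and Robo3 at chr9:37326965-37344737 (minus). All are protein-coding, and none overlaps another protein-coding gene in GENCODE vM39. Since Dnmt1 methylates cytosine in CG dinucleotides, the upstream sequences of a ligand and a receptor on opposite sides of the layer comparison, Slit3 and Robo2, are shown with each CG in capitals. They are the 250 bases before the annotated start in RefSeq's promoter table for GRCm38.p6. That build is not the files' build, so these coordinates cannot be set beside the gene positions.

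Slit3, chr11:35121206-35121455, plus strand: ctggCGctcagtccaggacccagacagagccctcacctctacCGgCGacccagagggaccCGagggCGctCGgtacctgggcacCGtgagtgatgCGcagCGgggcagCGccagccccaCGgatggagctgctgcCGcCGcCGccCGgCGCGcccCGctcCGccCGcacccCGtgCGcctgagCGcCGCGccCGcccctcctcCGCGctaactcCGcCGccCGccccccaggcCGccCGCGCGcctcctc

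Robo2, outermost of 3 annotated starts, chr16:75447294-75447543, minus strand: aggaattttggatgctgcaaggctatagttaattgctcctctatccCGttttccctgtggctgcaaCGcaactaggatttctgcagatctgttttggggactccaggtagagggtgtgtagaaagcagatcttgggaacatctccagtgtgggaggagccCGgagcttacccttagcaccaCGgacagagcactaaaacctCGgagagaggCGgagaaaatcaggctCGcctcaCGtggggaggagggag

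The Slit3 window held 35 CG, a number reached by 2.97% of the 32851 windows of this length in the table, and the Robo2 window held 8, reached by 43.0%. The other Robo2 starts had 14 and 4 CG, Slit2 had 25, Robo1 had 11 and Robo3 had 12, against a median of 6 over all windows. For Slit2, Robo1 and Robo3 a single start was listed, and whether it is the outermost of the gene was not checked. Methylation was not measured in these libraries, and which start was used was not given by the counts.

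Slit1 was highest in CGE-interneuron-like nuclei, the class of interneurons from the caudal ganglionic eminence, at 400, 486, 582 and 584 CPM. In the deep-layer-like class it was at 227, 195, 242 and 249 CPM, below every library of the CGE-interneuron-like class. All other classes had means of 108 CPM or less, and from the deep layers on, each class overlapped the next one in the order. MGE-interneuron-like nuclei, from the medial ganglionic eminence, had 27.8, 52.2, 46.9 and 29.4 CPM of Slit1. Deep-layer-like nuclei, which were numerous and second in Slit1 level, held 59.5% to 84.3% of all Slit1 transcripts of a library. The fewer CGE-interneuron-like nuclei held 1.25% to 6.81%.

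Slit2 was highest in cortical-hem-like nuclei, at 1714, 2166, 1547 and 2614 CPM. The cortical hem is the signalling centre at the medial edge of the cortex, beside the midline. The values of this class lay above those of every other ordered class. IPC-like nuclei followed at 903, 1138, 1183 and 368 CPM and radial-glia-like nuclei at 970, 611, 487 and 398 CPM, and the libraries of these progenitor classes overlapped. Upper-layer-like nuclei had 260, 609, 380 and 181 CPM, deep-layer-like nuclei 213, 300, 181 and 60.0 CPM. The upper-layer-like class, in which Eomes was still found, held 12.6% to 43.0% of all Slit2 transcripts. With classes set by a standardized marker score it fell from 1250 to 3655 nuclei per library to 376 to 1258, and the IPC-like class rose from 16 to 42 nuclei to 395 to 603.

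Slit3 reached 1244, 1794, 926 and 1020 CPM in deep-layer-like nuclei and 717, 665, 1053 and 1228 CPM in cortical-hem-like nuclei. These classes overlapped, and both lay above every library of the other ordered classes. Upper-layer-like nuclei had 156, 614, 270 and 174 CPM. Endothelial-like and mural-like nuclei had 433 and 391 CPM in Dnmt1 KO replicate 2 and 96.3 CPM or less in the other libraries. Radial-glia-like nuclei had 53.4, 48.9, 31.6 and 58.2 CPM, and IPC-like nuclei had less in 3 of 4 libraries, at 19.0, 9.78, 12.3 and 214 CPM. Deep-layer-like nuclei held 60.1% to 83.9% of all Slit3 transcripts.

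The excitatory-like nuclei (upper-layer-like and deep-layer-like together) were split by Zfp385b, a zinc finger gene of a subset of these neurons. Zfp385b was chosen with earlier results of these data known, so the Slit3 difference is a description and no separate support. Nuclei with at least 2 Zfp385b transcripts had 2939, 3129, 1807 and 2497 CPM of Slit3, and the others had 245, 695 (Dnmt1 KO replicate 2), 311 and 142 CPM, without overlap. Robo2 was the other way round, at 435, 833, 1193 and 1011 CPM with Zfp385b and at 3211, 2836, 3700 and 3626 CPM without it. This split favours deeply sequenced nuclei, does not separate upper-layer-like from deep-layer-like nuclei, and was not tested. Deep-layer-like nuclei as a whole also had more Slit3 and less Robo2 than upper-layer-like ones.

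Robo1, which mediates Slit repulsion, was, by mean, highest of the ordered classes in deep-layer-like nuclei at 3110, 1554, 2289 and 1726 CPM. Upper-layer-like nuclei had 1700, 1700, 1528 and 1147 CPM, CGE-interneuron-like nuclei 1060, 1292, 1411 and 1021 CPM, and Cajal-Retzius-like nuclei 1059, 1441, 1486 and 784 CPM. These 4 classes overlapped from each one to the next. MGE-interneuron-like nuclei were lower, at 384, 419, 510 and 390 CPM, and radial-glia-like nuclei had 326, 243, 198 and 273 CPM.

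Robo2 separated the classes more sharply. Upper-layer-like nuclei had 6304, 4546, 5536 and 5464 CPM, above every library of all other ordered classes. Cajal-Retzius-like nuclei, the Reln-producing neurons of the marginal zone, were next and varied little, with 3769, 3821, 3701 and 3514 CPM. They again lay above all remaining ordered classes, among which CGE-interneuron-like (611 to 1539 CPM), MGE-interneuron-like (824 to 1232 CPM) and deep-layer-like nuclei (734 to 1122 CPM) overlapped. Upper-layer-like nuclei held 49.9% to 70.8% of all Robo2 transcripts.

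**Figure D1:**
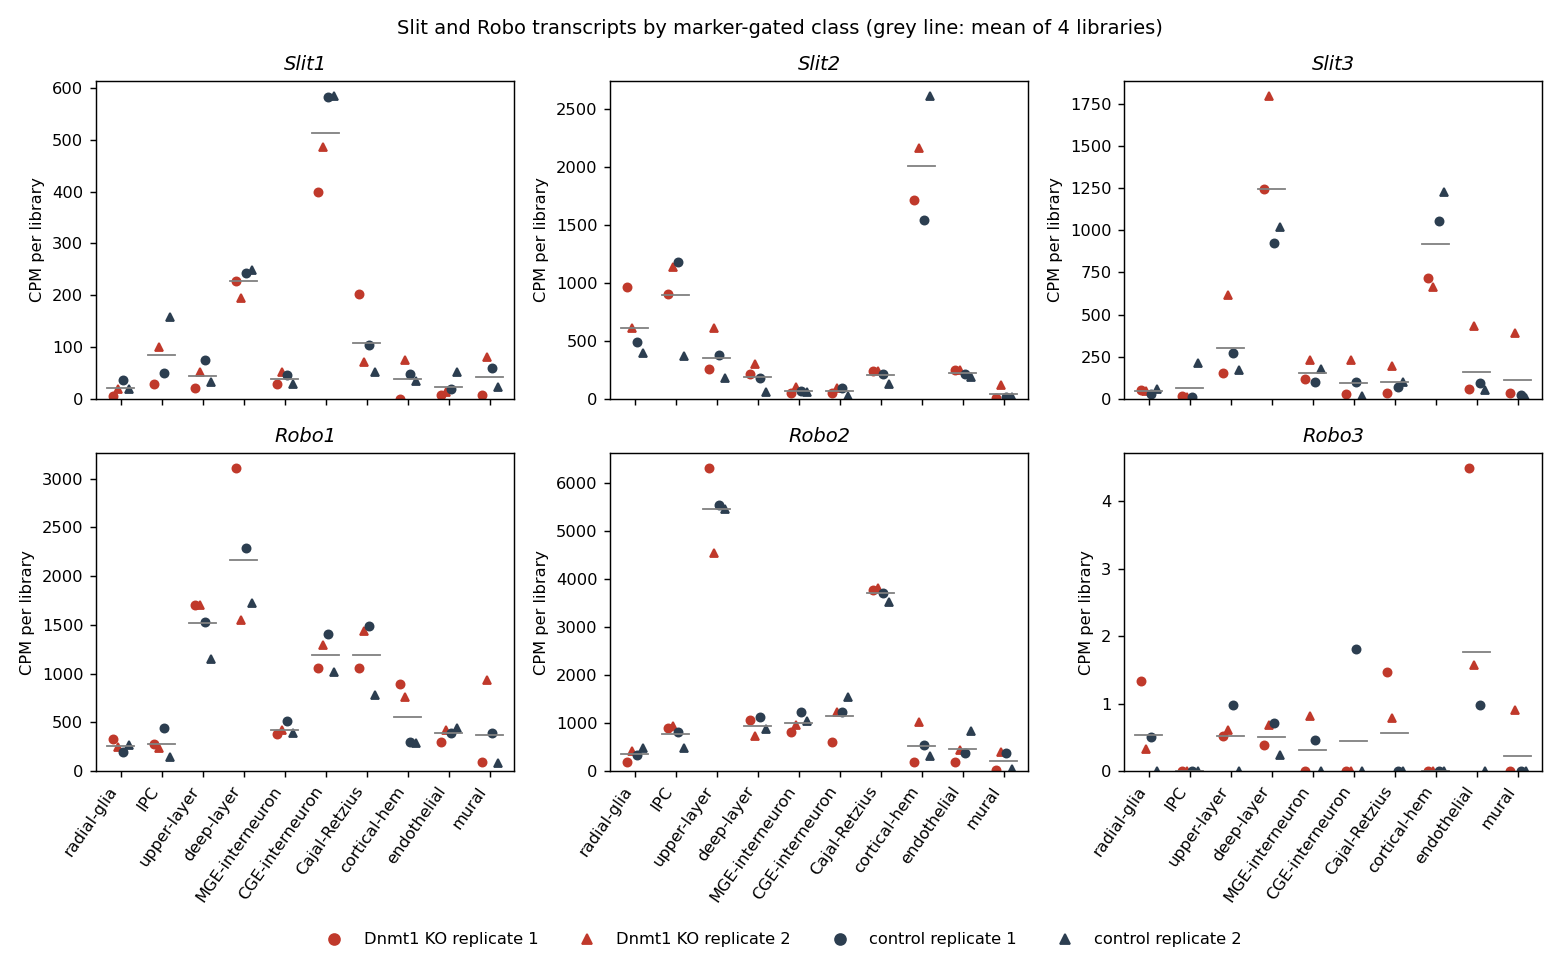
CPM of each gene (vertical axis, linear) in the 10 classes with at least 10 nuclei in every library, 1 point per library and a grey line at the mean of the 4 libraries. Robo2 stood highest in the upper-layer-like class (mean 5463 CPM), Slit2 in the cortical-hem-like class (2010 CPM) and Slit1 in the CGE-interneuron-like class (513 CPM), while Robo3 stayed at a mean of 1.76 CPM or less.

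The genes with the most similar profiles over the 40 sums of these 10 classes in 4 libraries, among 10911 genes, were Cnr1 for Slit1 (Pearson's r 0.82), Rmst for Slit2 (0.91), Plppr4 for Slit3 (0.76), Elmod1 for Robo1 (0.86) and Epha3 for Robo2 (0.91). The next were Gpr155 for Slit1 (0.74), Ezr for Slit2 (0.91), Rab27b for Slit3 (0.76), Dscam for Robo1 (0.86) and Plxna4 for Robo2 (0.91). The correlations were computed on log2(CPM + 1), the sums of a library share its depth, and no test was made. Epha3 and Plxna4 encode guidance receptors, Dscam an adhesion molecule and Cnr1 the cannabinoid receptor.

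Ligand and receptor transcripts were then counted nucleus by nucleus. Detection was not corrected for gene length, and Robo1 and Robo2 span 739 and 1556 kb against 144 to 591 kb for the Slit genes. Shares of nuclei with Slit and with Robo are therefore not levels on a common scale. To make depths equal, each nucleus was thinned to 5000 transcripts and shallower ones were left out. Cortical-hem-like nuclei had a transcript of some Slit gene in 100%, 96.3%, 95.8% and 100% of nuclei (100%, 98.8%, 100% and 100% before thinning). After thinning, 28.6% to 38.5% had a Slit transcript and none of Robo, a share that depends on depth. Both kinds were found together in 61.5%, 64.2%, 58.3% and 71.4% of them (74.2%, 78.3%, 79.2% and 92.9% before thinning). Cajal-Retzius-like nuclei had a Robo transcript in 100% of nuclei in every library, and 0% had Slit alone. In deep-layer-like nuclei both kinds were found together in 71.4%, 70.0%, 66.1% and 64.4% (84.4%, 87.0%, 85.5% and 87.7% before thinning). Upper-layer-like nuclei, with some Robo transcript in 94.96%, 94.7%, 94.7% and 97.1% (96.6%, 96.9%, 96.6% and 98.8% before thinning), had Robo alone in 50.4%, 29.0%, 40.9% and 50.5%. That share depends on depth too, as both kinds were found in 44.5%, 65.7%, 53.7% and 46.6% (57.1%, 77.9%, 69.4% and 69.3% before thinning). The share of Slit-positive nuclei among radial-glia-like nuclei was 78.8%, 67.9%, 62.7% and 53.8% (83.7%, 76.7%, 74.4% and 72.3% before thinning).

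Microglia-like nuclei, a class outside the neural lineage, served as a background, though not a steady one. In control replicate 1 its 13 nuclei had 1196 CPM of Slit3 and 1461 CPM of Robo1, where the other libraries had 25.9, 14.1 and 0 CPM of Slit3 and 0, 220 and 140 CPM of Robo1. A Slit transcript was found in 33.3% to 45.9% of them and a Robo transcript in 35.1% to 66.7%, in 5, 37, 11 and 6 thinned nuclei, at unthinned median depths of 6642, 6442, 7167 and 11538 transcripts. MGE-interneuron-like nuclei had unthinned medians of 9556 to 15979 transcripts. Their Slit-positive share, 36.7%, 43.1%, 31.5% and 37.7% (48.2% to 55.3% before thinning, against 30.8% to 43.8% in microglia-like nuclei), was below the thinned background in 3 of 4 libraries and above it in control replicate 2, and before thinning it was above in 4 of 4. In CPM, Slit3 was at 115, 231, 100.1 and 179 in MGE-interneuron-like nuclei, above the microglia-like class in each library except control replicate 1. Robo transcripts, in 85.4%, 83.0%, 83.5% and 85.1% of MGE-interneuron-like nuclei (88.8% to 96.5% before thinning), lay above the background. For single genes, Slit1 was found in 73.6% to 83.9% of CGE-interneuron-like nuclei and in 6.67% to 16.2% of MGE-interneuron-like ones, against 18.2% to 33.3% of microglia-like nuclei. Before thinning these shares were 77.6% to 96.5%, 13.0% to 24.0% and 15.4% to 33.3%. Robo2 was found in 86.3% to 94.8% of upper-layer-like, 47.4% to 55.4% of deep-layer-like and 0% to 40.0% of microglia-like nuclei. Before thinning they were 89.0% to 97.5%, 61.3% to 79.8% and 22.9% to 50.0%.

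**Figure D2:**
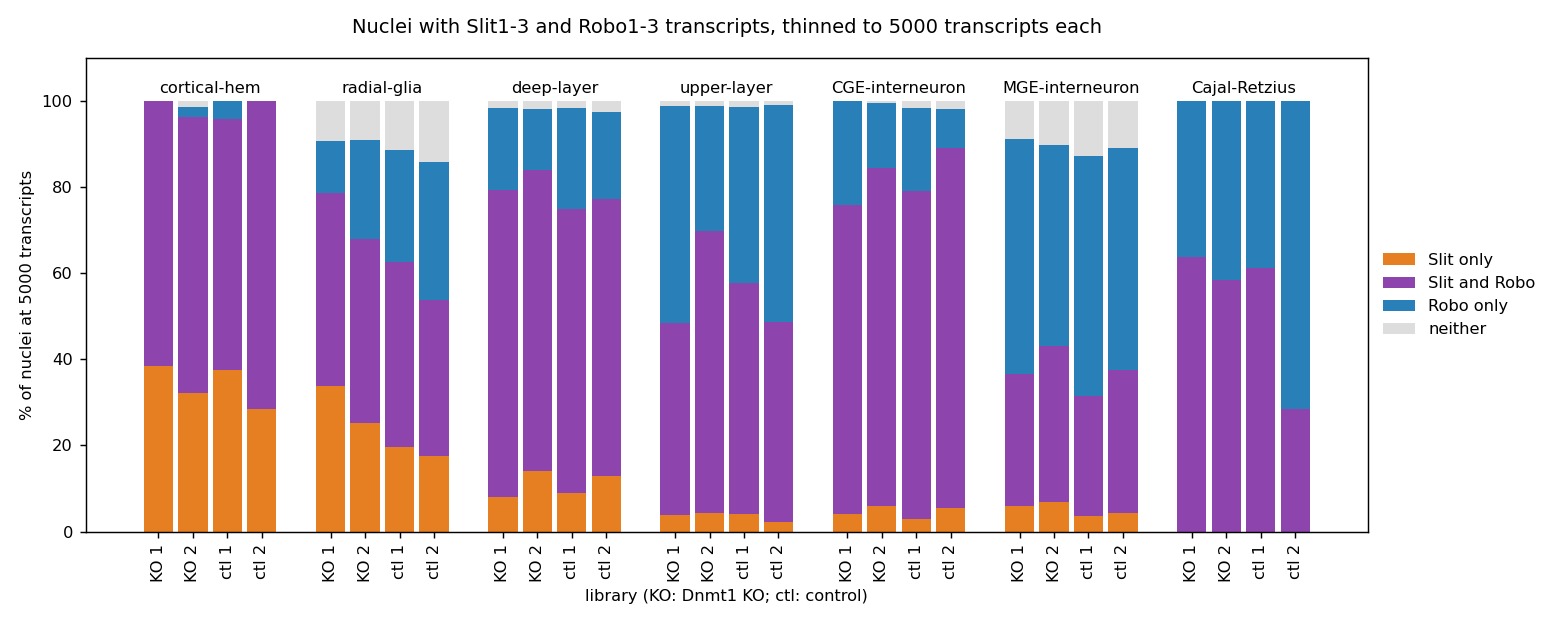
Share of nuclei (vertical axis, %) with transcripts of Slit1 to Slit3 only, of both families, of Robo1 to Robo3 only, or of neither, after thinning to 5000 transcripts, with 1 bar per library. Nuclei with Slit alone were 28.6% to 38.5% of the cortical-hem-like class and 0% of the Cajal-Retzius-like class. Both families were found in 58.3% to 71.4% of cortical-hem-like nuclei, and in 74.2% to 92.9% before thinning.

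The deep and upper layers were compared first among the classes. Slit1 and Slit3 were higher in the deep-layer-like class, with log2 fold changes of 2.59 (SE 0.302, edgeR adjusted p 0.00102) and 2.36 (SE 0.254, adjusted p 0.000762), and Robo1 was higher by 0.63 (SE 0.160, adjusted p 0.0209). Robo2 was lower, with a log2 fold change of -2.39 (SE 0.0775, adjusted p 2.60e-05), and so was Slit2, with -0.85 (SE 0.192, adjusted p 0.0133). In class means this was 5.06 times as much Slit1 and 4.11 times as much Slit3 in the deep layers, and 5.77 times as much Robo2 in the upper layers. Thus 5 of 6 genes passed the test, where 43.2% of the 17268 genes tested did, 21.6% in each direction. Robo3 did not (0.24, adjusted p 0.701). The Slit1 level of upper-layer-like nuclei, 21.3 to 74.1 CPM, lay within or below the 25.9 to 218 CPM of microglia-like nuclei. The size of the Slit1 fold between the layers is therefore uncertain. The libraries of the classes did not overlap for Slit1, Slit3 and Robo2, and did overlap for Robo1, higher in 3 of 4 libraries, and for Slit2, lower in 4 of 4. Robo1 lost its call with mixed-marker nuclei left out (log2 fold change 0.34, adjusted p 0.221), without control replicate 1 (0.60, adjusted p 0.0907) and without control replicate 2 (0.59, adjusted p 0.0714). It was also lost without the library as a block (0.66, adjusted p 0.0672) and with the standardized score (0.45, adjusted p 0.0738). Slit2 lost its call without Dnmt1 KO replicate 2 (adjusted p 0.0534), without control replicate 1 (adjusted p 0.0617) and without the library block (-0.79, adjusted p 0.308).

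In the pathway list, 6 of 30 genes tested were higher and 3 lower in the deep-layer-like class, and the median log2 fold change was 0.05, against -0.02 over all genes. Flrt3, a membrane protein that binds Robo1, was lower, at -1.91 on the log2 scale. Srgap1, a GTPase-activating protein recruited by Robo, was higher by 0.45, and Ntn1, which encodes netrin 1, by 0.37.

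MGE-interneuron-like nuclei were set against excitatory-like nuclei, because the study asks for effects of the deletion within somatostatin interneurons and on other cells. Both families were lower in the interneurons than in these nuclei of both layers summed. Robo2 had a log2 fold change of -1.43 (SE 0.0804), Slit2 of -1.80 (SE 0.188), Slit1 of -1.93 (SE 0.183), Robo1 of -2.11 (SE 0.156) and Slit3 of -2.44 (SE 0.180), with edgeR adjusted p-values of 0.000357 or less. These 5 of 6 genes compare with 35.4% of 16777 genes called, 20.2% lower and 15.2% higher. Robo3 had -0.36 (adjusted p 0.647). Slit1 in MGE-interneuron-like nuclei, at 27.8 to 52.2 CPM, lay within the 25.9 to 218 CPM of microglia-like nuclei, so the size of its fold is uncertain. For Slit2, the MGE-interneuron-like nuclei had 49.6, 98.7, 66.9 and 59.7 CPM and the excitatory-like nuclei 226, 430, 274 and 119 CPM, without overlap. Set beside each layer alone, most ranges overlapped. For Robo2 (824 to 1232 CPM) and Slit2 they overlapped the deep-layer-like class (734 to 1122 and 60.0 to 300 CPM). For Slit1 and Slit3 (100.1 to 231 CPM) they overlapped the upper-layer-like class (21.3 to 74.1 and 156 to 614 CPM). Robo1 lay below both layers. Of 29 pathway genes, 9 were higher and 9 lower (median 0.01, all genes -0.03). Flrt3 was at -2.33 and Dcc, which encodes the netrin receptor, at -1.57 on the log2 scale, while Nck1, an adaptor that links receptors to actin, was higher by 1.32.

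Among interneurons, the CGE-interneuron-like class had a log2 fold change of 3.72 for Slit1 against the MGE-interneuron-like class (SE 0.169, edgeR adjusted p 8.14e-07) and of 1.49 for Robo1 (SE 0.0837, adjusted p 2.33e-06). In class means these were 13.1-fold and 2.81-fold, with no overlap of libraries. The Slit1 level of MGE-interneuron-like nuclei lay within the 25.9 to 218 CPM of microglia-like nuclei, so the size of the Slit1 fold is uncertain. Slit2 (-0.06, 95% interval -0.50 to 0.39), Robo2 (0.14, -0.20 to 0.49) and Slit3 (-0.79, -1.70 to 0.11) did not pass, and Slit3 ranged from -1.32 without Dnmt1 KO replicate 2 to -0.27 without control replicate 2. The 2 of 5 genes tested compare with 13.2% of 10113 genes called, 6.39% higher and 6.83% lower. The directions of Slit2 and Slit3 turned with classes set by a standardized marker score (1.22, adjusted p 0.0497, and 1.10, adjusted p 0.0907). Slit3 was called as lower with a lead of 2 markers (-1.61, adjusted p 0.000153) and without a low-count filter (-0.87, adjusted p 2.53e-09). One pathway gene of 29 was higher, Nell2, a secreted ligand of Robo receptors (0.55), and 1 was lower, Dcc (-1.30), with a median of -0.04 and a median of 0.00 over all genes.

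Sst+/Gad2+ nuclei were compared with MGE-interneuron-like nuclei without an Sst transcript. Slit1 was at 29.6, 97.7, 128 and 50.6 CPM in the first and at 27.6, 48.7, 45.1 and 29.0 CPM in the second, a log2 fold change of 1.01 (SE 0.177, edgeR adjusted p 0.00913). Robo2 was at 1395, 1065, 2061 and 1373 CPM and at 772, 915, 1225 and 1021 CPM, a log2 fold change of 0.53 (SE 0.113, adjusted p 0.0241). Each of these genes was higher in Sst+/Gad2+ nuclei in 4 of 4 libraries. Robo1 (0.47, adjusted p 0.179), Slit2 (0.41, adjusted p 0.402) and Slit3 (0.18, adjusted p 0.722) did not pass, so that 2 of 5 were called where 5.46% of 10079 genes were, 3.95% higher and 1.51% lower. Slit1 lost its call without Dnmt1 KO replicate 2 (adjusted p 0.119) or control replicate 1 (0.0783), and Robo2 without any one of the 4 libraries (0.0509 to 0.131). Both were lost with the standardized score (adjusted p 0.13 and 0.466) and without the library block (0.0895 and 0.160), and Robo2 with limits on mapped reads (0.23, adjusted p 0.719). Robo1 was called without Dnmt1 KO replicate 2 (0.73, adjusted p 0.0363), with a lead of 2 markers (0.89, adjusted p 0.0203) and without a low-count filter (0.37, adjusted p 0.0171). Slit2 was called without Dnmt1 KO replicate 1 (0.55, adjusted p 0.0447) and with a lead of 2 markers (0.87, adjusted p 0.0382). Slit1 in microglia-like nuclei was at 25.9, 53.7, 94.9 and 218 CPM, and its level on either side of this comparison lay within that range. Library by library, Sst+/Gad2+ nuclei lay above microglia-like ones except in control replicate 2, and Sst-negative nuclei only in Dnmt1 KO replicate 1. The microglia-like values rest on 6, 48, 13 and 6 nuclei, the lowest on 1 transcript. Nuclei of the Sst+/Gad2+ population were also deeper (medians 13362 to 22576 against 9247 to 15828 transcripts), and the part of depth in this result was not tested. Flrt3 was the only pathway gene of 28 to pass, with a log2 fold change of 1.14. Sst+/Gad2+ nuclei were taken whatever their class. With mixed-marker nuclei left out, 2, 17, 3 and 0 of 16, 136, 40 and 27 of them remained. On the Sst-negative side 72, 203, 148 and 35 of 237, 864, 562 and 288 remained. A lead of 2 markers redrew only that side, to 215, 708, 478 and 243 nuclei. The standardized score did the same, to 245, 896, 555 and 333 nuclei. Slit1, Robo2 and Flrt3 were each lower in MGE-interneuron-like than in excitatory-like nuclei, and the part of mixed nuclei was not tested.

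Radial-glia-like nuclei had less of most genes than excitatory-like nuclei, with log2 fold changes of -4.55 for Slit3 (SE 0.211), -3.43 for Slit1 (SE 0.346) and Robo2 (SE 0.213) and -3.28 for Robo1 (SE 0.145), all with edgeR adjusted p-values of 0.000110 or less. Slit2 went the other way, with a log2 fold change of 0.88 (SE 0.254, adjusted p 0.0182). Its CPM in radial glia exceeded that in excitatory-like nuclei (226, 430, 274 and 119) in 4 of 4 libraries. The call for Slit2 was lost without control replicate 2 (0.74, adjusted p 0.0632), with mixed-marker nuclei left out (0.66, adjusted p 0.138) and without the library block (0.82, adjusted p 0.0898). The 5 of 6 genes stand against 66.0% of 16798 genes (33.4% higher, 32.6% lower), a contrast in which most genes differed. Slit1 in radial-glia-like nuclei, at 6.48 to 37.1 CPM, lay within or below the 25.9 to 218 CPM of microglia-like nuclei. The size of its fold is therefore uncertain. In the pathway list 9 of 30 were higher and 17 lower, and the median of -0.27 lay below the 0.01 of all genes. Nell2 was at -3.62, Srgap1 at -2.65 and Dcc at -2.43 on the log2 scale.

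From radial-glia-like to IPC-like nuclei, the committed progenitors of excitatory neurons, Slit1 was higher by 2.21 (SE 0.337, edgeR adjusted p 0.000236) and Robo2 by 1.16 (SE 0.268, adjusted p 0.00512) on the log2 scale. Slit1 was at 29.6, 101.1, 49.0 and 158 CPM in IPC-like and at 6.48, 19.3, 37.1 and 19.1 CPM in radial-glia-like nuclei, levels within or below the 25.9 to 218 CPM of microglia-like nuclei. Slit2 (0.48, adjusted p 0.0811), Slit3 (0.09, adjusted p 0.931) and Robo1 (-0.02, adjusted p 0.960) did not pass. The 2 of 5 genes stand against 27.6% of 10864 genes (11.3% higher, 16.3% lower). Robo2 was higher in 3 of 4 libraries, at 894, 936, 809 and 480 CPM against 187, 420, 343 and 490 CPM. The IPC-like sums hold 42, 31, 16 and 33 nuclei, of which 42, 27, 15 and 33 also had 3 or more markers of another class. A single marker gave the lead in 30, 25, 11 and 27 of them, and the part of mixed nuclei was not tested. Without control replicate 2 Slit3 changed sign (-1.67, edgeR adjusted p 0.00438). Slit2 was called without Dnmt1 KO replicate 1 (0.66, adjusted p 0.0298), without control replicate 2 (0.70, adjusted p 0.0188) and without a low-count filter (0.36, adjusted p 0.0321). With each library left out, Slit2 ranged from 0.23 to 0.70. Robo2 ranged from 0.75 to 1.58 with each library left out. It lost its call with no upper limit on transcripts (0.74, adjusted p 0.112) and with a lead of 2 markers (0.47, adjusted p 0.298). With the standardized score Slit2 turned to -0.21, adjusted p 0.0326, and Robo1 (0.47, adjusted p 0.00320) and Slit3 (0.87, adjusted p 0.0113) were called as higher. Of 29 pathway genes 6 were higher and 5 lower (median -0.03, all genes -0.04), with Dcc higher by 3.36, Nck1 at -0.88 and Ext1, an enzyme of heparan sulphate synthesis, at -0.84.

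Cajal-Retzius-like nuclei had less Slit3 (-3.31, SE 0.282, edgeR adjusted p 5.78e-06), Robo1 (-0.78, SE 0.179, adjusted p 0.00684) and Slit1 (-0.74, SE 0.215, adjusted p 0.0231) than excitatory-like nuclei. Robo2 (0.35, adjusted p 0.0657) and Slit2 (-0.34, adjusted p 0.112) did not pass. The 3 of 6 genes stand against 31.5% of 16415 genes (13.4% higher, 18.1% lower). With classes set by a standardized marker score, Slit3 turned to 0.76 (adjusted p 0.0316), in 87 to 259 nuclei per library against 43 to 126, so this difference depends on how the class is drawn. Slit1 lost its call without Dnmt1 KO replicate 2 (adjusted p 0.109), control replicate 1 (0.0780) or control replicate 2 (-0.48, adjusted p 0.0661), and Robo2 was called without control replicate 2 (0.45, adjusted p 0.0282). Slit1 was also lost with limits on mapped reads (-0.31, adjusted p 0.145) and without the library block (-0.60, adjusted p 0.181), and Robo1 with the standardized score (-0.31, adjusted p 0.217). Robo2 was called with a lead of 2 markers (0.40, adjusted p 0.0394), with RLE scaling (adjusted p 0.0434) and by DESeq2 (0.0303), and Slit2 as lower with mixed-marker nuclei left out (-1.29, adjusted p 0.00110) and without a low-count filter (-0.41, adjusted p 0.0204). In the pathway list 8 of 30 were higher and 8 lower (median 0.02, all genes -0.08). Nell2 was at -3.68 and Srgap1 at -2.04, while Gpc1, a glypican that binds Slit, was higher by 2.08 on the log2 scale.

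**Figure D3:**
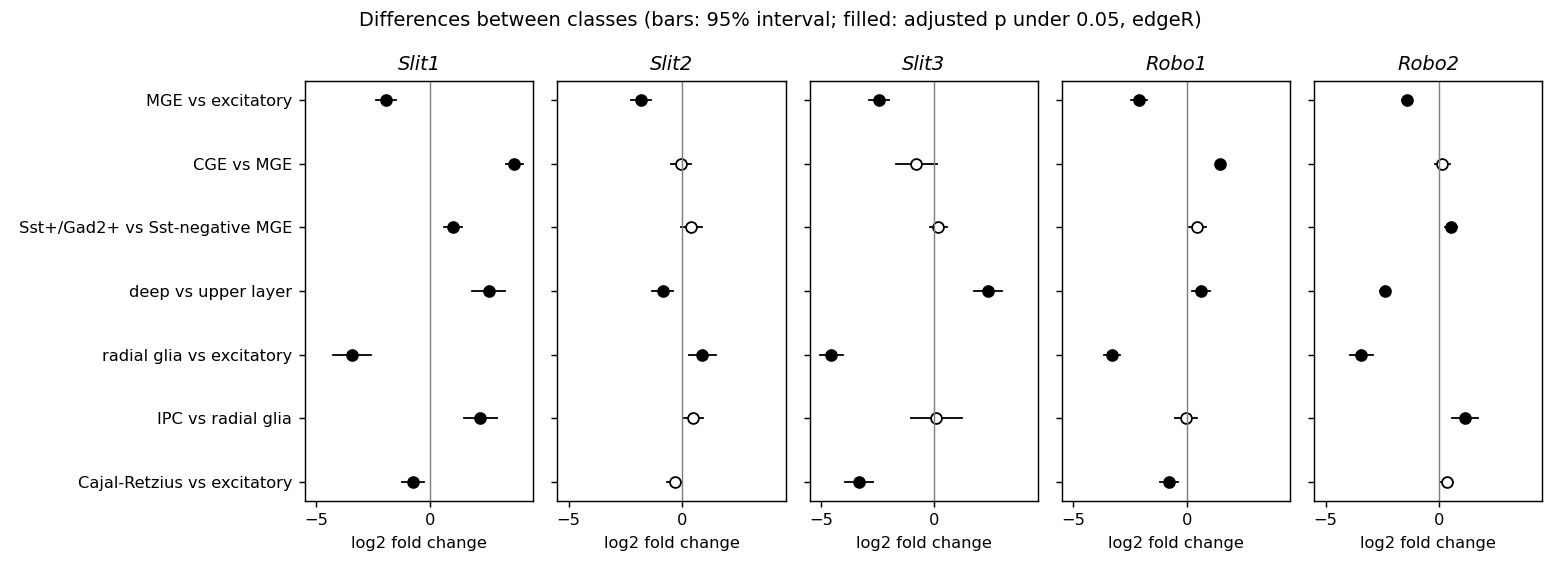
Log2 fold changes (horizontal axis) of the Slit genes and of Robo1 and Robo2 in the 7 comparisons between classes, as points with 95% intervals, filled where the edgeR adjusted p was under 0.05. Slit1 ranged from -3.43 in radial glia against excitatory nuclei to 3.72 in CGE against MGE interneurons, and Slit3 reached -4.55 in radial glia.

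The genotypes were compared within 7 populations. By edgeR, 0 of the 4 to 6 genes tested in a population were called, and 0.00% of all genes were called in each of them. The upper limit of 60000 transcripts per barcode took out 1.35% and 4.37% of the transcripts of the Dnmt1 KO libraries and 19.2% and 29.4% of those of the controls. Without it, Sst+/Gad2+ nuclei numbered 16, 140, 53 and 36, and 0 genes were called there by edgeR with 1388 at an unadjusted p under 0.05. At an unadjusted p under 0.05 there were 3 values, described below, while 211 to 1192 genes of a population were under that value, and DESeq2 called 0 to 77 genes of a population and 0 of the guidance genes. Control replicate 2 was the only library of its batch, so values without it are those within the first batch. Xist and the Y-linked Uty divided the libraries by replicate number in both genotypes, so sex was balanced between the genotypes with all 4 libraries and is not once a library is left out. Leaving out a library, as within the first batch, also leaves 1 library in its genotype, which the fit takes to vary like those of the other genotype.

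In Sst+/Gad2+ nuclei Robo1 was at 512 and 364 CPM for Dnmt1 KO against 938 and 715 CPM for control, without overlap. The log2 fold change was -0.87 (SE 0.277, unadjusted p 0.0179, edgeR adjusted p 1.00), -1.07 within the first batch and -0.55 with limits on mapped reads. Robo2 in the same nuclei was at 1395 and 1065 against 2061 and 1373 CPM, with overlap (-0.43, 95% interval -1.12 to 0.27, and -0.71 to -0.069 with each library left out, the last without control replicate 1). Robo1 was the 1 gene of 5 whose genotypes did not overlap, and 33.5% of 7217 genes did the same. Across all MGE-interneuron-like nuclei, Robo1 was at 384 and 419 against 510 and 390 CPM (-0.11, 95% interval -0.46 to 0.25). Robo2, at 824 and 953 against 1232 and 1037 CPM, did not overlap (-0.29, 95% interval -0.62 to 0.03). Its value was -0.42 within the first batch and -0.42 to -0.16 with each library left out, but the genotypes did not overlap with all 4 libraries. That was 1 of 5 genes, against 37.0% of 12541.

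Among the ligands, Slit2 in radial-glia-like nuclei was at 970 and 611 CPM in the Dnmt1 KO and 487 and 398 CPM in the control libraries. Its log2 fold change was 0.87 (SE 0.242, unadjusted p 0.0144, edgeR adjusted p 0.818), and it was the 1 gene of 5 without overlap, against 37.4% of 13403 genes. Without Dnmt1 KO replicate 2 the log2 fold change was 1.15, without Dnmt1 KO replicate 1 it was 0.52, and within the first batch it was 0.71. Each of these fits left 1 library in a genotype. Cortical-hem-like nuclei, the class with most Slit2, moved the same way, at 1.17% and 0.688% of nuclei with the loxP alleles and 0.341% and 0.285% of control nuclei. The 8 hem markers summed to 62.7 and 45.4 CPM against 20.8 and 24.6 CPM in the radial-glia-like nuclei themselves, where 6 or 7 of them were detected in a library, and 91.3% to 97.6% of these nuclei also had 3 or more markers of another class. The part of hem nuclei in the Slit2 result was not tested. In deep-layer-like nuclei Slit2 was at 213 and 300 against 181 and 60.0 CPM (1.08, 95% interval -0.25 to 2.41), and the value was 0.51 within the first batch and 2.04 without control replicate 1. Slit3 was at 1244 and 1794 against 926 and 1020 CPM there, with a log2 fold change of 0.61 (SE 0.227, unadjusted p 0.0428, edgeR adjusted p 0.712) and 0.72 within the first batch. Leaving out Dnmt1 KO replicate 2 gave 0.31 and leaving out Dnmt1 KO replicate 1 gave 0.87. In this class Slit2 and Slit3 were higher and Slit1 lower in both Dnmt1 KO libraries than in either control, 3 of 6 genes, against 40.1% of 17717. With all genes kept regardless of their counts, Slit2 and Slit3 were called in the deep-layer-like class (edgeR adjusted p 8.82e-12 and 0.000117) and in the upper-layer-like class (0.0197 and 0.000656). There 838 and 262 genes were called in all, among more genes than the 17717 and 17397 tested with the filter. In the upper-layer-like class the libraries of the genotypes overlapped for both genes. Means for Dnmt1 KO and control were 435 (SD 246) and 280 (SD 141) CPM of Slit2, and 385 (SD 324) and 222 (SD 68.3) CPM of Slit3.

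In the CGE-interneuron-like class Slit1, at 400 and 486 against 582 and 584 CPM, and Robo2, at 611 and 1223 against 1236 and 1539 CPM, did not overlap, 2 of 5 genes against 33.6% of 8483. In IPC-like nuclei this held for Robo2, at 894 and 936 against 809 and 480 CPM, 1 of 4 genes against 35.8% of 5885. In upper-layer-like nuclei it held for Robo1, at 1700 and 1700 against 1528 and 1147 CPM, 1 of 6 genes against 32.9% of 17397. Slit3 had a positive log2 estimate in each of the 6 populations where it was tested and passed in none of them. Without Dnmt1 KO replicate 2 the Slit3 estimate was negative in 4 of the 6, at -1.11 in Sst+/Gad2+, -0.20 in MGE-interneuron-like, -1.24 in CGE-interneuron-like and -0.53 in upper-layer-like nuclei.

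Whether the genotypes differed in another way in MGE-interneuron-like than in excitatory-like nuclei was tested by an interaction term. None of the 6 genes passed (0 of 6 by edgeR, 0.00% of 18256 genes, 434 at an unadjusted p under 0.05 and 0 by DESeq2). The estimate for Robo1 was -0.44 (95% interval -1.09 to 0.21), -0.011 without Dnmt1 KO replicate 1 and -0.88 without Dnmt1 KO replicate 2. In the pathway list 0 of 27 to 30 genes were called in any population. The smallest unadjusted edgeR p-values belonged to Rac1 and Gpc1 in Sst+/Gad2+ nuclei (0.102 and 0.153), to Rac1 and Ntn1 in MGE-interneuron-like nuclei (0.0157 and 0.0420), to Nell2 and Gpc1 in CGE-interneuron-like nuclei (0.0282 and 0.0305) and to Dcc and Nck2 in radial-glia-like nuclei (0.0529 and 0.0530). In IPC-like nuclei they belonged to Ntn1 and Dcc (0.0637 and 0.0921), in upper-layer-like nuclei to Rhoa and Gpc1 (0.0458 and 0.0768) and in deep-layer-like nuclei to Gpc1 and Rac1 (0.0195 and 0.0511).

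**Figure D4:**
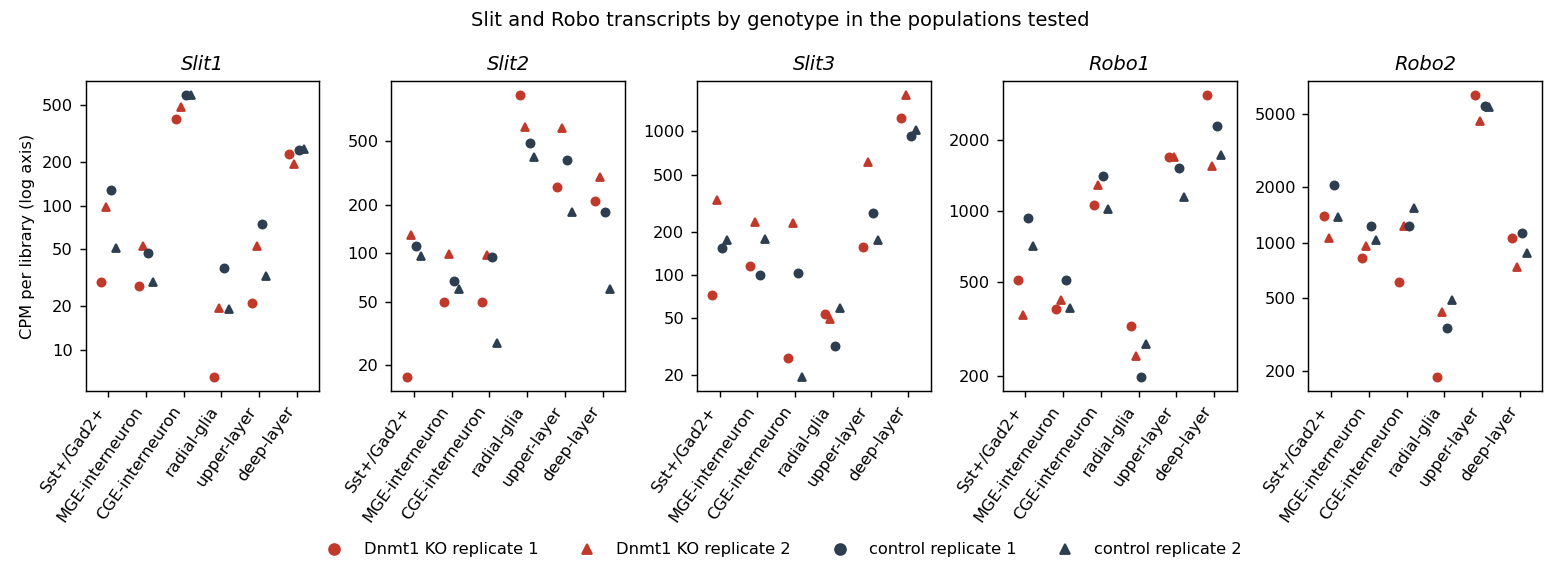
CPM (vertical axis, logarithmic) of the Slit genes and of Robo1 and Robo2 in 6 of the populations tested, 1 point per library, red for Dnmt1 KO and dark blue for control. Robo1 in Sst+/Gad2+ nuclei (512 and 364 against 938 and 715 CPM) and Slit2 in radial-glia-like nuclei (970 and 611 against 487 and 398 CPM) are among the values without overlap, and none passed the adjusted test.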

How the data were processed

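Single-nucleus libraries of 2 Dnmt1 KO and 2 control samples were analysed from the deposited counts of transcripts per barcode and gene, which the authors made with the Trailmaker pipeline on mm39 (GRCm39) and did not normalize. The version of that pipeline and its counting of introns and strand were not given in the sources used here. The submitters' processing notes name R 4.4.1 and Seurat 5.0.1.9001. A barcode was kept as a nucleus if it held 1500 to 60000 transcripts, of which no more than 10% were mitochondrial, a limit that removed 0 nuclei (29656 of 1127729 barcodes kept). No doublet caller was run, and leaving out nuclei with 3 markers of a second class was an alternative. Counts were summed per library and class and given as CPM of that sum. Sums were tested with edgeR 4.0.16 (R 4.3.3), quasi-likelihood test with TMM scaling and filterByExpr, for genotype with the group alone, for classes with the library as a block, and adjusted by Benjamini-Hochberg over all genes at 0.05. The genes used to gate classes were left out. DESeq2 1.42.0 was an alternative. The edgeR fits were tested on simulated data. Named beside the 6 guidance genes were, per class comparison, up to 3 called pathway genes of largest change, and per genotype comparison the 2 of smallest p. For similar profiles, the 2 nearest of the genes with a mean of at least 5 CPM were named. The genes, lists and classes were chosen with earlier results of these data known.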

Additional observations from a re-analysis of the deposited data

How the results depend on the processing

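The number of guidance genes called by genotype was 0 in all 7 populations with the replicate block (0 genes in all). Libraries of like number shared their sex by Xist and Uty, but their deviations correlated at only -0.111 to 0.108, so the numbers were not taken as pairs. The number called was also 0 with RLE scaling and DESeq2. In CGE-interneuron-like nuclei a crossed block, chosen after seeing the data, called 32 genes and 0 of the guidance genes. Without a low-count filter the number called was 1 in CGE-interneuron-like and IPC-like nuclei (Slit3) and 2 in the nuclei of either layer (Slit2 and Slit3). Mean Slit3 in Dnmt1 KO against control was 129 against 61.1 CPM in CGE-interneuron-like and 14.4 against 113 CPM in IPC-like nuclei, in opposite directions. Leaving out each library gave 0 to 1 in Sst+/Gad2+ (Slit2, -2.53, without Dnmt1 KO replicate 2, resting on 4 transcripts in Dnmt1 KO replicate 1), radial-glia-like (Slit2) and IPC-like nuclei (Slit3, -3.68, without Dnmt1 KO replicate 1). Between classes, IPC-like against radial-glia-like called 1 gene with no upper limit on transcripts and 1 with a lead of 2 markers (1344 genes in all). It called 5 with a standardized marker score, also chosen after seeing the data (7816 genes in all). With each library left out it called 2 to 4 (2288 to 2722 genes in all). As reported, this comparison called 2996 genes in all. Deep against upper layers called 3 without the library block (3289 genes in all) and 3 to 5 with each library left out (5338 to 7072 in all). Sst+/Gad2+ against Sst-negative nuclei called 1 with limits on mapped reads, 4 with a lead of 2 markers, 0 with the score and 0 without the library block. The lead and the score redraw only the Sst-negative side. With each library left out this comparison called 0 to 2 (148 to 585 genes in all). The highest class was kept by 3 of 5 genes under the score (14 classes, Slit3 became highest in choroid-plexus-like and Robo1 in striatal-like nuclei). It was kept by 4 of 5 with limits on mapped reads (9 classes, Slit2 then highest in IPC-like nuclei) and with mixed-marker nuclei left out (4 classes, Slit2 in upper-layer-like nuclei), where cortical-hem-like nuclei were under 10 in a library. Some Robo transcript was found in 93.4% of nuclei unthinned and 87.6% thinned, as means of the 4 library percentages.

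Among the genotype estimates followed across settings (Robo1 and Robo2 in Sst+/Gad2+ and MGE-interneuron-like nuclei, Slit2 in radial-glia-like and deep-layer-like nuclei, Slit3 in the latter, and Robo1 in the interaction), the direction reversed for Robo2 in Sst+/Gad2+ nuclei (0.039 with limits on mapped reads) and for Robo1 in MGE-interneuron-like nuclei (0.15 with mapped reads, 0.094 with a lead of 2 markers, 0.050 with the score, and -0.29 to 0.10 over libraries left out). In CGE against MGE interneurons, Slit2 became 0.13 with no upper limit, 1.22 with the score, 0.056 without the block and -0.32 to 0.18 over libraries left out, Robo2 ranged from -0.022 to 0.33 over libraries left out, and Slit3 became 1.10 with the score. In IPC-like against radial-glia-like nuclei, Robo1 became 0.39 with mapped reads, 0.75 with a lead of 2, 0.47 with the score, 0.030 without the block and -0.37 to 0.28 over libraries left out. Slit2 became -0.21 there with the score, and Slit3 became -0.030 without a filter, -0.74 with DESeq2, -0.32 with no upper limit, -0.98 with a lead of 2 and -1.67 to 0.52 over libraries left out. With the score, Cajal-Retzius-like nuclei had 1.08 for Slit2, -0.29 for Robo2 and 0.76 for Slit3. Slit3 in Sst+/Gad2+ against Sst-negative nuclei became -0.33 with mapped reads and -0.10 with the score. The causes were not tested. Of 445 class values, 375 kept direction and call.

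Over all genes, the calls ranged from 719 to 1808 (CGE against MGE, 1337 as reported), 1901 to 5376 (Cajal-Retzius, 5173), 1344 to 7816 (IPC, 2996), 3137 to 6024 (MGE against excitatory, 5945), 148 to 1196 (Sst+/Gad2+, 550), 3289 to 7506 (layers, 7460) and 3823 to 11481 (radial glia, 11087). By genotype they reached 838 (deep), 262 (upper), 162 (MGE), 115 (interaction), 106 (IPC), 78 (CGE), 59 (Sst+/Gad2+) and 79 (radial glia), against 0 as reported. Leaving out mixed-marker nuclei was not run for the Sst+/Gad2+ and IPC-like populations, where a library kept no transcripts, and the other ways of setting classes do not apply to the genotype test of Sst+/Gad2+ nuclei. The IPC-like, Sst+/Gad2+ and cortical-hem-like sums hold under 100 nuclei in most libraries, which limits what they can show.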

Other observations

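Several classes were too unevenly spread over the libraries to enter a comparison. Striatal-like nuclei, 231 of which lay in control replicate 1 and 41 in Dnmt1 KO replicate 2, had more Robo1 than the ordered classes of these libraries, at 5216 and 6390 CPM, with Robo2 at 5164 and 4505 CPM and Slit3 at 1006 and 2169 CPM. The 187 meningeal-like nuclei of Dnmt1 KO replicate 2 had 3603 CPM of Robo1, 709 CPM of Slit2 and 651 CPM of Slit3. The 112 choroid-plexus-like nuclei of that library had 1067 CPM of Slit2 and 2217 CPM of Slit3 with 146 CPM of Robo1 and 509 CPM of Robo2. The meningeal-like and choroid-plexus-like values each come from a single library and have no replicate check.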
